A study of Mus musculus with 19 samples.

Results

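Mir183, Mir96 and Mir182 are the 3 microRNA (miRNA) hairpins of one polycistronic cluster, and they were followed through 19 small RNA libraries of mouse sperm. Members were chosen by gene, and their reads were those of 20 to 24 nt that matched one of these hairpins in sense orientation, allowing 1 mismatch. They are 3 of 2198 miRNA hairpins of the reference, and 452416 reads met the rule. Wild-type male mice, 8 weeks old at the start, were given the phthalate plasticiser dicyclohexyl phthalate (DCHP) by oral gavage at 10 mg/kg body weight/day for 4 weeks, and vehicle-treated mice served as controls. RNA of 15 to 50 nt from cauda epididymal sperm was sequenced by traditional RNA-seq (5 control and 5 DCHP libraries) or by PANDORA-seq (4 control and 5 DCHP libraries). In PANDORA-seq, the demethylase AlkB strips methyl groups at which a reverse transcriptase would stop, and T4 polynucleotide kinase turns fragment ends into ends that adapters can be ligated to. The treatment label reads DCHP for all 19 libraries, controls included, and only the titles tell the exposure groups apart. The study describes its PANDORA-seq sperm replicates as different mice, and the labels do not say so of either method, so for traditional libraries the p-values measure a spread that may be technical in part. The study filtered the sperm and lysed somatic cells before extraction. Sperm is a bulk sample here, and a change in the share of one cell type cannot be told apart from a change in RNA per cell.

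A cluster of this kind is transcribed as one primary transcript, from which the enzymes Drosha and Dicer cut each hairpin and then a duplex of 2 mature strands. One strand, here the 5p strand, is loaded into an Argonaute protein, and its bases 2 to 8, the seed, pair with target mRNAs. A 5′ end that lies 1 base away therefore gives another seed, whereas a different 3′ end leaves the seed as it is. The variants that result are called isomiRs. The cluster is best known from sensory cells such as photoreceptors and inner ear hair cells, where its loss or mutation impairs vision and hearing, and its members are also widely studied in epithelial tumours and in male germ cells.

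The hairpins lie on the minus strand of chromosome 6 (GRCm38, positions counted from 1). Mir183 (ENSMUSG00000065619.2) is at chr6:30169668-30169737, Mir96 (ENSMUSG00000065586.1) at chr6:30169446-30169551 and Mir182 (ENSMUSG00000076361.1) at chr6:30165918-30165992. Mir183 and Mir96 are separated by 116 bases and Mir96 and Mir182 by 3453 bases. The mature 5p sequences below are those of RefSeq (GRCm38.p6), with the seed in capitals, and are shown because the seeds relate the 3 members to each other.
mmu-miR-183-5p: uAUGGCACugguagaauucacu
mmu-miR-96-5p: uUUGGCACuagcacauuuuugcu
mmu-miR-182-5p: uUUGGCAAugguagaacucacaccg
The seeds of miR-96-5p and miR-182-5p share 6 of 7 bases, as do those of miR-96-5p and miR-183-5p, and the seeds of miR-182-5p and miR-183-5p share 5 of 7.

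The RefSeq hairpins are shown next, 5′ to 3′, with the read found most often in these libraries in capitals, since the arm and the ends of that read are what the values below describe.
Mir183 hairpin: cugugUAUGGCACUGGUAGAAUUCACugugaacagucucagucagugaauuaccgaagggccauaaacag
Mir96 hairpin: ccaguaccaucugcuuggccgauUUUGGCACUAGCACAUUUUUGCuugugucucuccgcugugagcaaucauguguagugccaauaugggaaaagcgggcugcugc
Mir182 hairpin: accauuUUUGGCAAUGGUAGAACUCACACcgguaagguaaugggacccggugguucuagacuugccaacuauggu
In each hairpin the capitals lie on the 5p arm. In traditional libraries 99.997% of Mir183 reads and 99.996% of Mir182 reads came from that arm. Mir96 had 17 reads of the 3p arm among 495 (3.43%). No read of 20 to 24 nt matched a member and another hairpin equally well.

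Library depth was 21588335 to 56506344 reads. Reads of 20 to 24 nt on hairpins that had at least 50% of their reads at these lengths, termed mature-length miRNA reads, numbered 960499 to 8151873 in traditional libraries and 7240 to 49718 in PANDORA-seq libraries, so that members were counted far more precisely by traditional RNA-seq. Levels are given as miRNA RPM, the reads per 1000000 of these mature-length miRNA reads. Traditional control replicate 2 stood apart, with 15.65% of its reads being mature-length miRNA (3.96% to 6.90% in the other 4 controls) and with 43.2% of those being Mir122, the miRNA of hepatocytes. Mir122 took 1.38% to 24.1% in the other traditional libraries and 1.1% to 24.9% in PANDORA-seq. Replicate 2 had the highest Mir122 share of its group in all 4 groups. The share was 43.2% and 21.5% in traditional control and DCHP, and 24.9% and 22.9% in PANDORA-seq control and DCHP. The labels do not say what libraries of that number have in common. Of 12 miRNAs known from male germ cells and sperm, 11 had reads, with a summed level of 13788 to 81317 miRNA RPM over the 19 libraries. Of 7 epithelial miRNAs 7 had reads, at 6712 to 47991 miRNA RPM. Of 6 blood cell miRNAs 5 had reads, at 0 to 694 miRNA RPM.

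Mir182 and Mir183 were among the more frequent miRNAs of these libraries, whereas Mir96, from the same transcript, was rare. Ranks were taken only among the hairpins or hairpin groups whose reads make up the mature-length miRNA reads, and not among all hairpins with reads. In traditional control libraries Mir182 ranked 11th, Mir183 19th and Mir96 240th of 664 such hairpins with reads. In PANDORA-seq control libraries Mir182, Mir183 and Mir96 ranked 27th, 47th and 309th of 488. In PANDORA-seq DCHP libraries they ranked 26th, 41st and 312th of 511. Mir182 had 15469, 44229, 62884, 22956 and 20574 reads in control replicates 1 to 5. Mir183 had 8586, 20560, 30698, 13749 and 10830 reads in the same libraries. Mir96 had 16, 68, 74, 22 and 5 reads. Every library thus held the members in the same order. Of the reads of the cluster, Mir182 made up 65.5% ± 2.26, Mir183 34.4% ± 2.28 and Mir96 0.0652% ± 0.0325 (mean ± SD, n = 5). Mir182 exceeded Mir183 1.91-fold in these libraries (geometric mean) and exceeded Mir96 1143-fold.

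In traditional DCHP libraries the order was the same. Mir182 had 27288, 10457, 33593, 37383 and 21924 reads in replicates 1 to 5, and Mir183 had 12128, 5838, 16635, 20242 and 14328. Mir96 had 40, 15, 43, 61 and 151 reads, with replicate 5 far above the others. In PANDORA-seq control replicates 1 to 4, Mir182 had 23, 53, 226 and 143 reads and Mir183 had 7, 22, 73 and 62. In PANDORA-seq DCHP replicates 1 to 5, Mir182 had 81, 79, 86, 128 and 234 reads and Mir183 had 34, 48, 36, 54 and 177. Mir96 was met by 1 read in each of 4 PANDORA-seq libraries (control replicates 2 and 3, DCHP replicates 1 and 5) and by no read in the other 5. Those 0 counts allow up to 3 reads, which is 133 to 414 miRNA RPM in the libraries concerned, above the 4.31 to 51.3 miRNA RPM of Mir96 in traditional libraries. Its share of the cluster in PANDORA-seq was 2 of 611 reads in control (0.327%, exact binomial 95% interval 0.0397% to 1.18%) and 2 of 959 in DCHP (0.209%, 0.0253% to 0.751%). Such intervals cover counting error only, and a difference from the traditional share was not detectable in Mir96 at this depth.

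**Figure D1:**
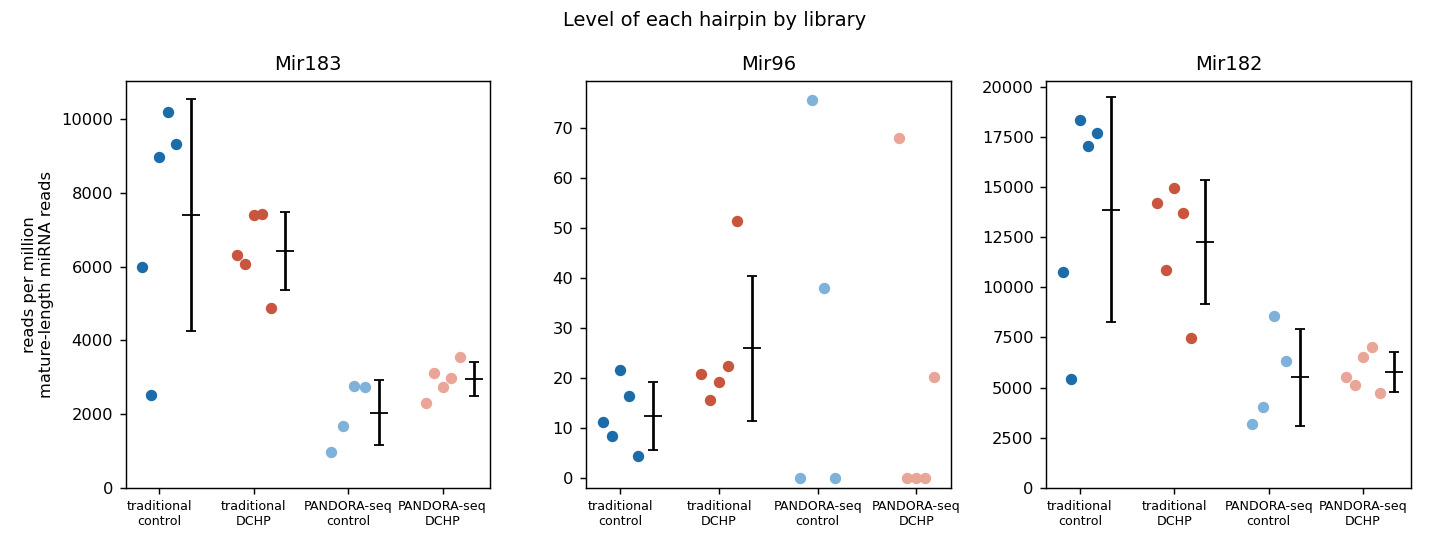
Level of Mir183, Mir96 and Mir182 in miRNA RPM (y axis, a separate scale for each hairpin) by group (x axis). Each point is a library, bars give mean ± SD (none for Mir96 in PANDORA-seq, where each point is 0 or 1 read). In DCHP every PANDORA-seq point of Mir183 and Mir182 sits below every traditional point, in control the groups overlap through traditional control replicate 2, and the DCHP point of Mir96 at 51.3 is replicate 5.

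No difference between DCHP and control libraries in the level of Mir182 or Mir183 passed the test, by either method. By traditional RNA-seq, Mir182 was 10767, 5426, 18360, 17042 and 17722 miRNA RPM in control replicates 1 to 5 and 14211, 10887, 14966, 13730 and 7455 in DCHP replicates 1 to 5. The DCHP values all lay within the range of the controls, whose lowest value was that of replicate 2. The means were 13863 ± 5612 and 12250 ± 3093 (SD, n = 5 each), a log2 fold change of −0.18 (SE 0.36, adjusted p = 0.895, edgeR quasi-likelihood test with Benjamini-Hochberg adjustment). With Mir122 reads left out of the denominator, Mir182 was at 7559 in DCHP replicate 5, below the controls at 9545 to 18858. Its log2 fold change was then −0.22 (adjusted p = 0.824 by edgeR). Mir183 was 5976, 2522, 8963, 10207 and 9329 miRNA RPM in control and 6316, 6078, 7411, 7434 and 4872 in DCHP. Its log2 fold change was −0.20 (SE 0.36, adjusted p = 0.880). Of 441 hairpins tested in this comparison, 0.0% passed an adjusted p below 0.1 with a fold change above 2, and 30 had an unadjusted p under 0.05. DESeq2 called 0 as well.

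Mir96 differed more between the exposure groups, on few reads. Its level was 11.1, 8.34, 21.6, 16.3 and 4.31 miRNA RPM in control replicates 1 to 5 and 20.8, 15.6, 19.2, 22.4 and 51.3 in DCHP replicates 1 to 5. The groups overlapped, and 2 of 5 DCHP libraries lay above the highest control. The log2 fold change was 1.06 (SE 0.49, unadjusted p = 0.0477, adjusted p = 0.684 by edgeR), which did not pass the test, and it was 0.65 without DCHP replicate 5. The summed level of the 7 epithelial miRNAs was 47991 miRNA RPM in that replicate and 44376 in DCHP replicate 4, against 18206 to 22638 in the other DCHP libraries and 6712 to 21593 in control, and their part in the Mir96 value was not tested. Mir96 itself was 22.4 miRNA RPM in DCHP replicate 4.

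In PANDORA-seq, Mir182 was 3177, 4004, 8556 and 6327 miRNA RPM in control replicates 1 to 4 and 5502, 5111, 6544, 7046 and 4707 in DCHP replicates 1 to 5. These values overlapped throughout (log2 fold change 0.05, SE 0.42, adjusted p = 0.975 by edgeR). Mir183 was 967, 1662, 2764 and 2743 miRNA RPM in control and 2309, 3106, 2739, 2973 and 3560 in DCHP. For Mir183, 3 of 5 DCHP libraries lay above the highest control, and the difference did not pass the test (log2 fold change 0.50, SE 0.46, adjusted p = 0.975 by edgeR). Mir96 did not reach the minimum of 10 reads in 4 libraries and was not tested. Of 150 hairpins tested, 0.0% were called, and 10 had an unadjusted p under 0.05. DESeq2 called 0. The difference between the methods in the DCHP effect was tested as an interaction over 458 hairpins, of which 0.0% were called and 13 had an unadjusted p under 0.05. It was 0.23 (SE 0.55) on the log2 scale for Mir182, 0.71 (SE 0.57) for Mir183 and −1.76 (SE 1.54) for Mir96, with adjusted p of 0.9998, 0.987 and 0.987 by edgeR. Mir96 entered this test through its traditional libraries, and its value rests on 0 or 1 read in each PANDORA-seq library. This test took all libraries as independent. With same-numbered libraries of an exposure group as blocks, chosen after seeing the data, the values were 0.12, 0.55 and −1.71, and 0 of 456 hairpins were called by edgeR, 30 having an unadjusted p under 0.05.

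PANDORA-seq, the method that recovers modified and end-damaged RNA, showed Mir182 and Mir183 at a lower share of the mature-length miRNA reads than traditional RNA-seq, in control and in DCHP sperm. In control, Mir182 averaged 13863 ± 5612 miRNA RPM by traditional RNA-seq (n = 5) and 5516 ± 2426 by PANDORA-seq (n = 4), a log2 fold change of −1.32 (SE 0.48, adjusted p = 0.0402 by edgeR). Mir183 averaged 7399 ± 3157 and 2034 ± 878, a log2 fold change of −1.84 (SE 0.51, adjusted p = 0.00898 by edgeR). The control groups overlapped in both miRNAs through traditional control replicate 2. In DCHP, Mir182 averaged 12250 ± 3093 and 5782 ± 983 (log2 fold change −1.08, SE 0.34, adjusted p = 0.0146 by edgeR). Mir183 averaged 6422 ± 1065 and 2937 ± 461 (log2 fold change −1.12, SE 0.33, adjusted p = 0.00907 by edgeR). With same-numbered DCHP libraries as blocks, a pairing taken from the data, Mir182 was at −1.05 and Mir183 at −1.12 (adjusted p = 0.0009 and 0.0008 by edgeR). In DCHP the 5 PANDORA-seq libraries lay below the 5 traditional libraries in both miRNAs, as they did in 8.44% of the 391 hairpins tested. In control this was so in 11.8% of 364 hairpins and in neither miRNA. Both shares include hairpins with few PANDORA-seq reads and are not matched for depth.

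Calls were frequent between the methods, at 41.2% of 364 hairpins in control and 33.2% of 391 in DCHP, but most went the other way. Hairpins lower in PANDORA-seq were 5.49% of those tested in control (20 hairpins, against 130 higher) and 1.79% in DCHP (7 against 123 higher), and Mir182 and Mir183 were among the lower ones in both. Many of these hairpins met the filter through traditional libraries alone, since 150 met it within PANDORA-seq. In control, 92 hairpins had at least 7 reads in each library of both methods. A hairpin with few reads in traditional libraries can hardly be called lower at PANDORA-seq depth, so these shares are no background matched for depth. These calls depended on what the reads were divided by. With mature-length reads of hairpins named Mir only, a denominator chosen after seeing the data, Mir182 was at −1.06 in control (adjusted p = 0.102 by edgeR). In DCHP it was at −0.83 and Mir183 at −0.89, both less than a 2-fold change, so that these 3 were no calls, while Mir183 in control was called at −1.58. Without PANDORA-seq control replicate 1, which had 7240 mature-length reads, Mir182 in control was at −1.14 (adjusted p = 0.117 by edgeR). Per total reads, the log2 fold changes were −8.26 for Mir182 and −8.75 for Mir183 in control, and the split of all calls turned to 21 higher and 303 lower.

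A change of denominator shifts all hairpins of one library alike, though not all log2 fold changes by the same amount. The values are therefore also given relative to the median hairpin. The median log2 fold change of all hairpins tested in control was 0.58 as reported, −1.26 with TMM normalization, −1.63 with DESeq2 and −6.42 per total reads. Relative to that median, Mir182 was at −1.90 and Mir183 at −2.42. In DCHP the median was 0.32, and relative to it Mir182 was at −1.41 and Mir183 at −1.44. Over 8 library sizes and normalizations, Mir182 lay at −1.93 to −1.79 and Mir183 at −2.45 to −2.30 in control. In DCHP these ranges were −1.59 to −1.39 and −1.61 to −1.44. These relative values depend on which hairpins enter the median, and without the filter on low counts they were −3.60 and −4.12 in control and −2.63 and −2.67 in DCHP for Mir182 and Mir183.

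Mir96 passed the filter of these comparisons only through its traditional libraries. Its log2 fold change was 1.21 (SE 1.15) in control and −0.54 (SE 1.05) in DCHP, with adjusted p of 0.447 and 0.763 by edgeR. The value in control turned to −0.66 with TMM, −1.09 with DESeq2 and −5.64 per total reads, and that in DCHP passed the test per total reads (−7.06) and with DESeq2 (−1.97). Each of these rests on 2 reads in PANDORA-seq, so that passing or failing the test measures no difference in Mir96.

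The ratio of a pair of hairpins within a library does not depend on the library size. Mir183/Mir182 was 0.555, 0.465, 0.488, 0.599 and 0.526 in traditional control replicates 1 to 5 and 0.445, 0.558, 0.495, 0.542 and 0.654 in traditional DCHP replicates 1 to 5. These ranges overlapped almost wholly, and the log2 ratio differed by 0.03 between DCHP and control (two-sided exact permutation test, p = 0.833). In PANDORA-seq the ratio was 0.319, 0.421, 0.325 and 0.436 in control and 0.423, 0.610, 0.422, 0.424 and 0.757 in DCHP (difference 0.46 on the log2 scale, exact p = 0.135). Of the DCHP libraries, replicate 5 had the highest ratio by each method.

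In control sperm, each of the 4 PANDORA-seq libraries had a lower Mir183/Mir182 ratio than each of the 5 traditional libraries. Such separation was common between the methods, at 69.4% of the 4186 pairs that 92 hairpins with at least 7 reads in each of these libraries form, so that it is not particular to these members. The log2 ratio was −1.43 ± 0.239 in PANDORA-seq and −0.93 ± 0.145 in traditional libraries, a difference of −0.50 (p = 0.00794 by exact permutation, no smaller p being possible for groups of 4 and 5, and adjusted p = 0.0317 over 12 ratio comparisons). That adjustment includes Mir96 ratios of PANDORA-seq, which the added count sets. The adjusted p was 0.0476 without them and 0.0952 with 0.05 added in place of 0.5 (exact permutation, both chosen after seeing the data). The PANDORA-seq library with the lowest ratio held 7 Mir183 reads. In DCHP sperm the same difference was −0.06 (exact p = 0.754, adjusted p = 0.823), and the groups overlapped. With same-numbered DCHP libraries paired it was −0.06 as well (exact permutation, adjusted p = 0.614). Whether the method difference itself differed between control and DCHP was not tested for the ratio.

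The ratio of Mir96 to Mir182 was lower in traditional control than in traditional DCHP libraries by a difference that passed the test only in some settings. How often other pairs of hairpins differ as much between these groups was not determined. There were 10.7, 15.5, 11.9, 9.80 and 2.67 Mir96 reads per 10000 Mir182 reads in control replicates 1 to 5 and 14.8, 14.8, 13.0, 16.5 and 69.1 in DCHP replicates 1 to 5 (0.5 added to each count). The values overlapped, since control replicate 2 exceeded 3 of the DCHP libraries. The difference of the log2 ratio was 1.20 (exact permutation p = 0.0317, adjusted p = 0.0762), and that of Mir183/Mir96 was −1.17 (exact p = 0.0556, adjusted p = 0.0952), which uses the same Mir96 counts. Neither held without DCHP replicate 5 (0.75 and −0.80, adjusted p = 0.202 for each) or without control replicate 5, which had 5 Mir96 reads (0.77 and −0.74, adjusted p = 0.202 for each). Without control replicate 1 or control replicate 4 the adjusted p of Mir96/Mir182 was 0.111, and that of Mir183/Mir96 was 0.136 or 0.177. Without DCHP replicate 1 the adjusted p of Mir183/Mir96 was 0.177. With 0.05 added in place of 0.5, chosen after seeing the data, the differences were much the same, at 1.22 (exact permutation p = 0.0317, adjusted p = 0.191) and −1.19 (exact permutation p = 0.0635, adjusted p = 0.254). The adjusted p-values of this paragraph cover 12 ratio comparisons, among them Mir96 ratios of PANDORA-seq that the added count sets. Adjusted without those, also chosen later, Mir96/Mir182 passed (exact permutation, adjusted p = 0.0952) and Mir183/Mir96 did not (exact permutation, adjusted p = 0.111).

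**Figure D2:**
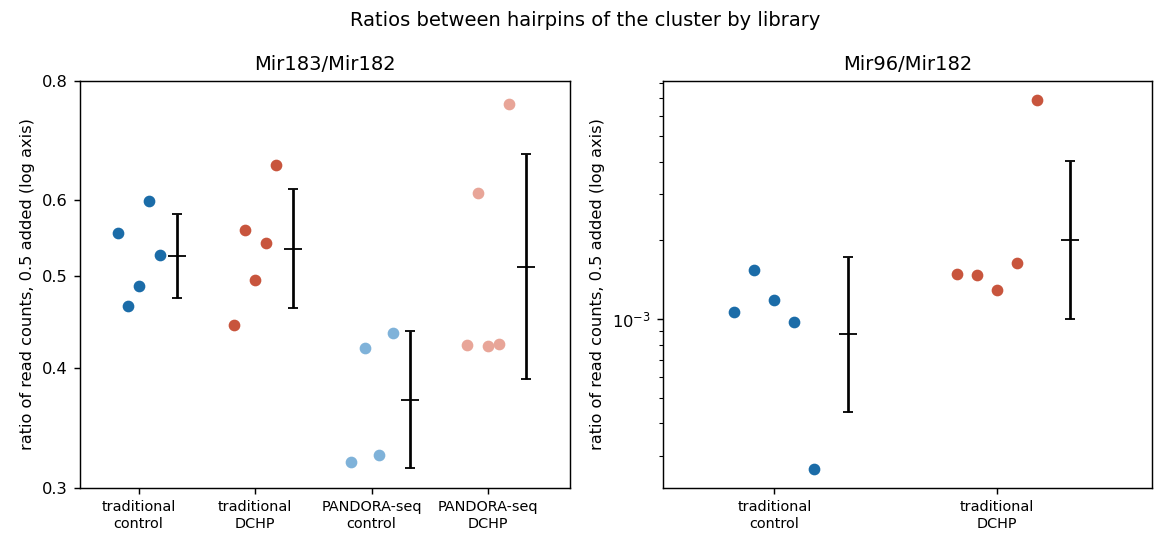
Ratio of read counts, 0.5 added to each, by library (points) and group (x axis) on log axes, with geometric mean and SD of the log2 ratio as bars. Mir183/Mir182 is lower in the 4 PANDORA-seq control libraries (0.319 to 0.436) than in the 5 traditional control libraries (0.465 to 0.599). In DCHP the PANDORA-seq libraries (0.422 to 0.757) overlap the traditional ones (0.445 to 0.654). The highest Mir96/Mir182 point, 0.00691, is traditional DCHP replicate 5.

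Ratios of Mir96 that involve PANDORA-seq rest on 0 or 1 read a library, so that the added 0.5 sets them. As tested, Mir96/Mir182 was higher in PANDORA-seq by 3.63 in control (exact permutation, adjusted p = 0.0317) and by 1.80 in DCHP (exact permutation, adjusted p = 0.0794) on the log2 scale. With 0.05 added in place of 0.5, chosen after seeing the data, the same values were 1.77 (adjusted p = 0.365) and −0.37 (adjusted p = 0.833). With same-numbered DCHP libraries paired, the value in DCHP was 1.80 with an adjusted p of 0.25 (exact permutation). The ratios of Mir96 in PANDORA-seq were thus set by the added count.

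Mir183 and Mir182 varied together over the 10 traditional libraries (Spearman rho 0.915), whereas Mir96 had a rho of 0.0303 with Mir182 and 0.0182 with Mir183 (all on miRNA RPM). These are descriptions across libraries of both groups that share the same denominator, and Mir96 has 5 to 151 reads. Among 187 hairpins with a mean of at least 100 reads, those whose level followed the summed cluster best over these 10 libraries were Mir10a (rho 0.952), Mir10b (0.952), reads shared by Mir10a and Mir10b (0.939), Mir151 (0.867) and Mir148a (0.770). Mir10a and Mir10b lie in the Hox gene clusters on chromosomes 11 and 2, and Mir148a lies on chromosome 6 with the cluster. The summed cluster and Mir122 had a rho of −0.333. The summed level of the cluster was lowest in traditional control replicate 2, at 7956 miRNA RPM, where Mir122 was highest. With Mir122 reads left out of the denominator that replicate had 13997 miRNA RPM, against 22063 to 28321 in the other controls. Traditional DCHP replicate 5 was then the lowest, at 12551.

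The members differed in how exactly their 5′ ends were defined. Reads of Mir183 in particular began at 2 neighbouring bases, and the most frequent sequences are shown with bases 2 to 8 of each read in capitals, as deposited (T for U).
Mir183 read 1: tATGGCACtggtagaattcac
Mir183 read 2: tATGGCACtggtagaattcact
Mir183 read 3: aTGGCACTggtagaattcact
Mir183 read 4: aTGGCACTggtagaattcac
Reads 1 and 2 begin at hairpin base 6, as the RefSeq miRNA does, and took 45.9% and 18.2% of the Mir183 reads of 20 to 24 nt. Reads 3 and 4 begin 1 base downstream and took 6.92% and 6.35%. The shifted start moves the seed from AUGGCAC to UGGCACU. Compared position by position, 1 of 7 holds the same base, but both seeds contain UGGCAC, offset by 1 base.

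The share of shifted Mir183 reads was much alike in all traditional libraries. It was 19.7%, 20.7%, 17.8%, 20.02% and 17.2% of 5p reads in control replicates 1 to 5 and 20.2%, 19.2%, 19.1%, 18.6% and 17.98% in DCHP replicates 1 to 5. PANDORA-seq gave 92 of 513 reads (17.9%, exact binomial 95% interval 14.7% to 21.5%), with single libraries between 5.56% and 31.8%. By contrast, Mir182 reads began 1 base downstream in 0.199% to 0.465% of cases by traditional RNA-seq and in 4 of 1051 reads (0.381%) by PANDORA-seq. Mir96 did so in 1 of 478 reads (0.209%). In traditional control, 80.8% of Mir183 5p reads lay at the main start, and of 179 arms with at least 50 reads in each library 137 had a higher share, the median being 98.7%. Mir182 was at 99.7%, with 54 arms higher.

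The 3′ ends set the members apart in another way. Mir183 had 1 main end, Mir96 another, and Mir182 had several. The main reads of Mir182 and Mir96 are shown with bases 2 to 8 in capitals.
Mir182 read 1: tTTGGCAAtggtagaactcacac
Mir182 read 2: tTTGGCAAtggtagaactcac
Mir182 read 3: tTTGGCAAtggtagaactcacacc
Mir182 read 6: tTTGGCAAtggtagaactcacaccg
Mir96 read 1: tTTGGCACtagcacatttttgc
In traditional control, 58.6% ± 0.892 of Mir183 5p reads were 21 nt long and 23.8% ± 0.592 were 22 nt, the RefSeq length (SD, n = 5). Mir182 was 23 nt in 37.2% ± 2.61, 21 nt in 26.1% ± 2.46 and 24 nt in 20.1% ± 0.946 of reads, with the intermediate 22 nt at 10.04% ± 0.924. The RefSeq form of miR-182-5p (Mir182 read 6) is 25 nt and thus longer than the reads counted, and reads with its ends made up 4.13% of Mir182 5p reads of every length in traditional libraries. Mir96 was 22 nt in 86.4% ± 13.4, a mean over libraries with 5 to 74 Mir96 reads. Pooled over these libraries, 142 of 181 Mir96 5p reads (78.45%) were 22 nt. The ends of its RefSeq form of 23 nt were those of 7 of 485 reads of every length (1.44%). A count that required the RefSeq ends would hold 18.9% of Mir183, 4.13% of Mir182 and 1.44% of Mir96 5p reads.

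**Figure D3:**
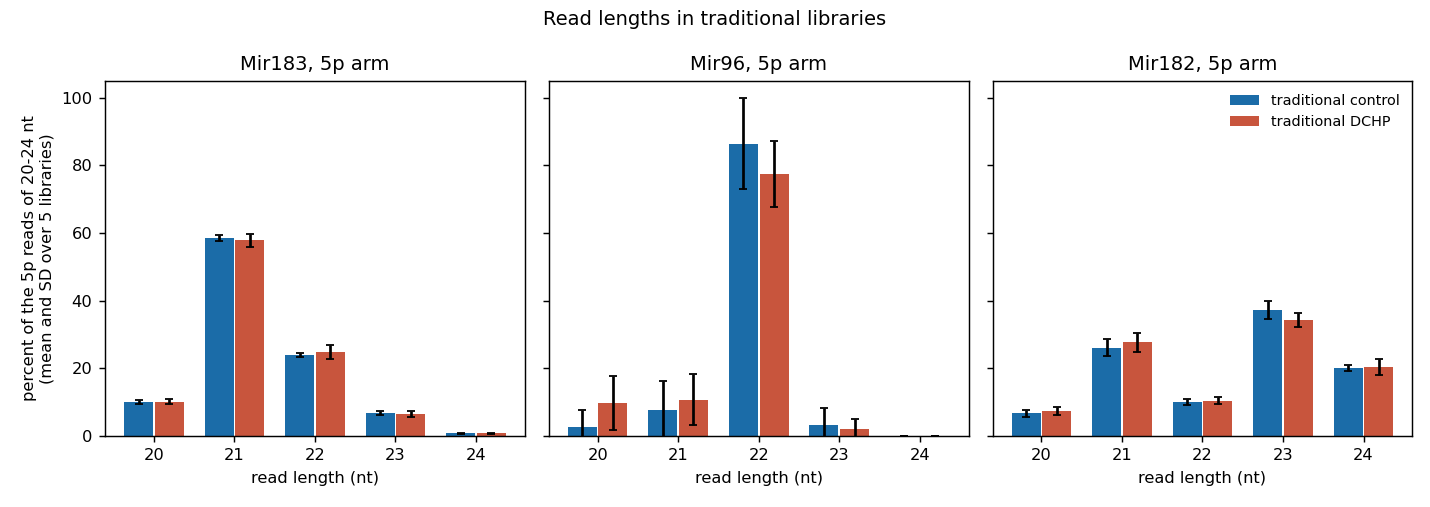
Share of 5p reads of 20 to 24 nt (y axis, percent) at each read length (x axis, nt) for Mir183, Mir96 and Mir182 in traditional libraries, as mean (bar) and SD (line) over 5 control and 5 DCHP libraries. Mir183 peaks at 21 nt (58.6% in control), Mir96 at 22 nt (86.4%) and Mir182 at 23 nt (37.2%) with a further peak at 21 nt (26.1%). The Mir96 bars rest on few reads, and 142 of 181 pooled control reads (78.45%) were 22 nt.

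For Mir183 and Mir182, no difference in these ends between DCHP and control passed the test. Mir96 did not reach the minimum of 50 reads in each library and was not tested. Over 173 arms in traditional libraries, 0.0% were called for the share at the main start, 0.0% for the share at the main end, 0.0% for mean length and 0.0% for a mismatch at the last base (two-sided exact permutation tests, call at adjusted p below 0.1). With 5 libraries a group the smallest p is 0.00794, so that no arm could be called unless at least 14 arms had a low p together, and 1 to 3 arms reached that smallest p in each measure. Between 7 and 14 arms had an unadjusted p under 0.05 in each measure. The largest change of a tested member, in percentage points, was in Mir182, of which 37.2% ± 2.61 in control and 34.4% ± 2.08 in DCHP ended at the main base (exact permutation p = 0.0873, adjusted p = 0.581). Mir96, on few reads, ended at its main base in 88.7% ± 13.7 of control and 77.7% ± 9.41 of DCHP 5p reads. The mean length of Mir182 was 22.38 nt in control and 22.33 nt in DCHP (exact permutation p = 0.397), and that of Mir183 was 21.29 nt and 21.30 nt (exact permutation p = 0.810). A mismatch at the last base occurred in 0.553% ± 0.217 of Mir183 and 0.372% ± 0.0622 of Mir182 control reads, against a median of 2.17% over 179 arms. An added base that equals the next hairpin base is not seen in this way, so these shares do not measure all added bases. By PANDORA-seq, Mir182 ended at the main base in 39.2% ± 3.09 of control (n = 4) and 37.2% ± 5.26 of DCHP reads (n = 5). The difference of these shares from traditional RNA-seq was within the spread between replicates in control (exact permutation, adjusted p = 0.444, with a minimum of 20 reads an arm) and in DCHP (exact permutation, adjusted p = 0.399). Of all arms tested for this share, 42.9% of 56 were called in control and 57.5% of 40 in DCHP.

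Shifted Mir183 reads also ended further downstream. Only ends at hairpin bases 26 to 28 were compared, which the length window of 20 to 24 nt allows for both starts. In traditional control, 65.9% ± 0.805 of the main-start reads among these ended at base 26, 26.1% ± 0.931 at base 27 and 8.02% ± 0.938 at base 28 (SD, n = 5). Of the shifted reads, 39.1% ± 1.75 ended at base 26, 41.5% ± 1.21 at base 27 and 19.5% ± 1.22 at base 28. The DCHP libraries gave 65.5% ± 2.18 and 37.4% ± 4.24 at base 26 for main and shifted reads. In all 10 traditional libraries the shifted reads had the lower share at base 26, and the lowest value of main-start reads, 62.1%, lay above the highest of shifted reads, 44.1%. The comparison was chosen after the values were seen and is given without a test.

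**Figure D4:**
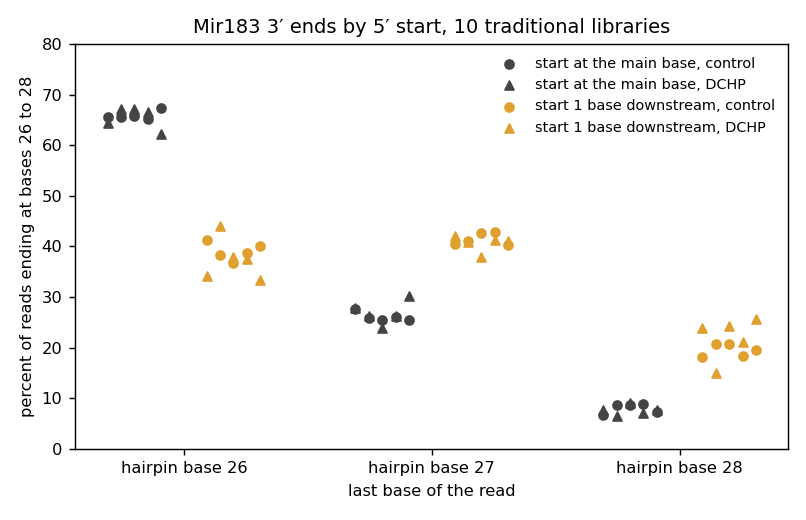
Percent of Mir183 reads (y axis) whose last base is hairpin base 26, 27 or 28 (x axis), out of reads ending at these 3 bases, for reads that begin at the main base (grey) or 1 base downstream (yellow). Each point is 1 of 10 traditional libraries (circles control, triangles DCHP). Main-start reads end at base 26 in 62.1% to 67.3% and shifted reads in 33.3% to 44.1%.

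One mismatch recurred in all 3 members, at the 7th base of the read and thus inside the seed. Positions are counted from 1 at the 5′ end of reads at the main start. A7C was the most frequent single mismatch of Mir183 (1781 of 124098 reads, 1.44%), Mir182 (3623 of 295634, 1.23%) and Mir96 (10 of 474, 2.11%) in traditional libraries. Mismatches of any kind at the 7th base were counted over all 5p reads, and shifted Mir183 reads have another hairpin base there. Such mismatches made up 1.37% to 1.83% of Mir183 and 1.51% to 1.81% of Mir182 5p reads in single traditional libraries. In PANDORA-seq they made up 1 of 513 Mir183 reads (0.195%, exact binomial 95% interval 0.00494% to 1.08%) and 5 of 1051 Mir182 reads (0.476%, 0.155% to 1.11%). The pooled traditional shares were 1.60% and 1.77%. These intervals pool reads over libraries and cover counting error only, and a difference between the methods was not tested. The share at the 7th base in other hairpins was not determined for PANDORA-seq. In shifted Mir183 reads, the hairpin base of A7C is the 6th base of the read. A change to C there was not among their 4 most frequent mismatches. Over 312 A positions in the main reads of 58 hairpins with at least 10000 traditional reads, the median share of A-to-C reads was 0.0320%, and over the 17 of these at the 7th read base it was 0.946%. Ordered by this share, the 7th base of Mir183 was 3rd and that of Mir182 was 6th of the 312 positions. The cause was not tested. Of Mir183 and Mir182 control reads, 90.8% ± 0.615 and 91.1% ± 0.353 had no mismatch.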

How the data were processed

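For each of the 19 libraries the authors deposited counts of reads, that is, every distinct sequence of 15 to 45 nt with the number of reads that had it, without normalization or molecular identifiers. The study describes analysis with the SPORTS software at 1 mismatch, and the labels give build mm10. The settings of adapter and quality trimming are not given in the sources used here. Sequences were matched here to 2198 GENCODE miRNA hairpins (GRCm38; 4 that hold a tRNA locus were left out) in sense orientation, allowing 1 mismatch, and reads matching several hairpins equally well were counted for the group of them. Mature and hairpin sequences came from RefSeq.

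Counts of 20 to 24 nt reads were tested with edgeR 4.0.16 (quasi-likelihood) in R 4.3.3 over hairpins with at least 10 reads in at least 4 libraries of the comparison. Library size was the sum over hairpins of which at least 50% of reads were 20 to 24 nt long. A call needed more than a 2-fold change and, after Benjamini-Hochberg adjustment, a p under 0.1, the cut-offs the study applied to sperm small RNAs with another test (samr). Ratios and isomiR measures (arms with at least 50 reads in each library) were compared by two-sided exact permutation tests in Python 3.11.15, and scripts were tested on simulated data. The counting error of the library size was 0.0350% to 0.102% in traditional and 0.449% to 1.18% in PANDORA-seq libraries.

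Alternatives were other library sizes, TMM, DESeq2 1.42.0, no filter, exact matches, reads of 18 to 26 nt, a replicate block and leaving out each library. Groups share replicate numbers. The study describes sperm RNA of control and DCHP sires as run by both methods, without saying which libraries share RNA. Same-numbered DCHP libraries of both methods deviated together from their group means (r 0.200 to 0.393 in 5 of 5 pairs) and were taken as paired, which comes from the data and not from the labels. The values reported are from the fits and tests without the block, and the block is an alternative, given beside a value only for the paired DCHP libraries and the interaction and otherwise in the closing section. The other comparisons were not taken as paired (r over 0.1 in 0 of 5, 2 of 4 and 3 of 4 pairs). The last of these is between methods in control, with r of −0.0390 to 0.535. If same-numbered control libraries share RNA, the p-values between methods in control treat shared samples as independent. Libraries of one group differed by more than sampling noise in all 36 pairs (chi-square of at least 14.3 for each degree of freedom). The members and marker lists were chosen with earlier results of these data known. The members are reported in full, and beside them the 5 hairpins whose level was most alike over traditional libraries.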

Additional observations from a re-analysis of the deposited data

Results flagged for a closer look

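In 52 groups of 4 or 5 libraries, 9 values lay farther from the rest of their group than Dixon's 95% limit, which chance exceeds in about 1 of 20 groups. Mir96 was 51.3 miRNA RPM in traditional DCHP replicate 5, against 15.6 to 22.4 in the other DCHP libraries, and its ratio to Mir182 there was 0.00691 against 0.00130 to 0.00165. Mir182 began 1 base downstream in 0.465% of 5p reads in that replicate (0.217% to 0.287% in the others). It did so in 0.375% in traditional control replicate 1 (0.199% to 0.250%), where 99.4% of reads lay at the main start against 99.69% to 99.73%. Mature-length miRNA reads were 15.65% of all reads in traditional control replicate 2 (3.96% to 6.90%). They numbered 49718 in PANDORA-seq DCHP replicate 5 (13142 to 18166). Mir122 took 24.9% of them in PANDORA-seq control replicate 2 (2.19% to 5.65%) and 22.9% in PANDORA-seq DCHP replicate 2 (1.1% to 4.94%). No cause was tested.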

How the results depend on the processing

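Of the values recomputed under an alternative, 589 kept their direction and side of the threshold, 29 fell below it, 5 passed it, 17 counts moved and 24 values turned sign. Counts of calls for DCHP were 10 (traditional) and 1 (PANDORA-seq) without the filter. For the methods in control they were 324 per total reads, 336 per hairpin reads, 258 per 20 to 24 nt hairpin reads, 263 with TMM, 271 with DESeq2 and 838 without the filter; in DCHP 351, 367, 270, 228, 260 and 806, with 76 for exact matches and 201 for 18 to 26 nt. In control, TMM gave 97 higher and 166 lower calls and DESeq2 92 and 179; in DCHP 102 and 126, and 101 and 159. On total, hairpin and 20 to 24 nt hairpin reads and with DESeq2, Mir96 was at −5.64, −3.30, −0.66 and −1.09 between methods in control (TMM −0.66) and at −7.06, −4.58, −2.18 and −1.97 in DCHP, where all 4 passed the test; in control the first 2 did. These Mir96 values rest on 0 or 1 read in each PANDORA-seq library, and their passing measures no difference. With reads of hairpins named Mir, Mir182 was at −1.06 in control and −0.83 in DCHP, and Mir183 at −0.89 in DCHP. With exact matches Mir182 was at −0.032 for DCHP in PANDORA-seq. The mean length of Mir183 differed by −0.0148 nt at 18 to 26 nt.

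With a replicate block, these log2 ratios no longer passed, the smallest possible p being 0.125 for 4 pairs and 0.0625 for 5: Mir96/Mir182 1.20 and Mir183/Mir96 −1.17 for DCHP in traditional libraries; Mir183/Mir182 −0.50, Mir96/Mir182 3.20 and Mir183/Mir96 −3.70 between methods in control; and Mir96/Mir182 1.80 and Mir183/Mir96 −1.86 between methods in DCHP. The block changed no call of Mir182 or Mir183 levels. With 0.05 added (chosen after seeing the data), Mir96/Mir182 and Mir183/Mir96 were 1.22 and −1.19, 1.77 and −2.29, and −0.37 and 0.30 in the same comparisons, and none passed. Adjusted without the Mir96 ratios of PANDORA-seq, also chosen later, Mir183/Mir96 for DCHP (−1.17) did not pass.

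Leaving out each library in turn gave, for DCHP in PANDORA-seq, Mir182 −0.13 to 0.35, 0 to 1 calls (1 without DCHP replicate 1) and Mir183/Mir96 0.70 to 1.72 (past the threshold without control replicate 4). For DCHP in traditional libraries it gave Mir183/Mir182 −0.0466 to 0.0925, Mir96/Mir182 0.75 to 1.40 and Mir183/Mir96 −1.42 to −0.74, Mir183 main start −0.56 to 0.34 and main end −1.50 to 0.0284 percentage points, Mir183 length −0.0035 to 0.0169 nt and Mir182 last-base mismatch −0.0033 to 0.0391 points. Between methods it gave Mir182 −1.61 to −1.14 in control, and Mir183/Mir182 −0.204 to 0.00999 and Mir96/Mir182 1.45 to 2.25 in DCHP, the last below the threshold without traditional DCHP replicate 1, 2, 3 or 4. Mir96 had 0 or 1 read a library in PANDORA-seq, too few to measure a difference.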
